A study of Homo sapiens with 23 samples.

Results

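Axon guidance ligands and receptors were followed through the differentiation of human embryonic stem cells into cardiomyocytes. The genes were chosen by symbol: protein-coding genes of the semaphorin, plexin, Eph receptor, ephrin, Slit, Robo, UNC5 and netrin families (SEMA and a digit, PLXN, EPHA, EPHB, EFNA, EFNB, SLIT, ROBO, UNC5, NTN and a digit), with NRP1, NRP2 and DCC. By that rule 1 class 3 semaphorin and the SLITRK genes were left out. It found 71 genes on 20 chromosomes among 57477 genes in the count table, of which 19629 were protein coding. A total of 69 had enough counts to be tested. NTN5, with 33 counts over all libraries, and the read-through gene EFNA4-EFNA3, with 0, were not. The 3 names outside the families' usual members are EFNA4-EFNA3, UNC5CL, a relative of the UNC5 receptors, and UNC50, which matched by its letters only.

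The cells were H1-hESC, an established human embryonic stem cell line, with a wild-type genotype in all libraries. Total RNA was taken on day 0, before differentiation, and on days 1, 3, 5 and 7, then on days 10, 14 and 28, and sequenced after removal of ribosomal RNA, giving 23 libraries, 3 a day and 2 at day 10. Stem cells were kept in mTesR1 and the derived cardiomyocytes in RPMI with insulin. No untreated cells of the later days were among the samples, so day 0 served as the reference, and the libraries come from 1 cell line. The labels do not say whether replicates came from separate differentiations, so p-values measure the spread between these libraries, which may be technical.

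Guidance ligands and their receptors were first known from growing axons and also act in blood vessels and the heart. Secreted class 3 semaphorins bind neuropilins (NRP1, NRP2), which signal through plexins. Most membrane-bound semaphorins bind plexins directly. Ephrins sit in the membrane and bind Eph receptor tyrosine kinases on neighbouring cells, Slits are secreted ligands of Robo receptors, and netrins bind DCC and the UNC5 receptors. In the developing heart, class 3 semaphorins and plexins are known for septation of the outflow tract, and Slit and Robo genes for formation of the chambers and septa.

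Levels are given as CPM, a gene's count relative to the library's size, scaled by edgeR's TMM factors. Library totals ran from 4330334 counts (day 5, replicate 3) to 22089595 (day 0, replicate 2). A value after ± is the SD over the libraries of a day after a mean (n = 3, and n = 2 at day 10) and the standard error after a log2 change. Values listed for a day follow replicates 1, 2 and 3. A gene was called at an adjusted p under 0.05 in edgeR's quasi-likelihood test, with no fold threshold. Each named call of a family member passed under all alternatives that could test it, and with each library left out, unless other settings stand beside it, each with its adjusted p in parentheses. For bulk RNA, a change in the share of cells that express a gene and a change in RNA per cell cannot be told apart. Marker sums followed the labelled course: pluripotency markers went from 5178 to 5517 CPM at day 0 down to 6.42 to 8.80 at day 28, and 5 cardiomyocyte markers from 12.4 to 14.1 up to 13810 to 18180 CPM. Neural and neural crest markers summed to 1.42 to 10.8 CPM in all 23 libraries, with SOX10 at 0 in each.

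Nearly all of these genes changed at some point: 66 of the 69 tested differed between days in the joint test, against a background of 88.4% of the 22245 genes tested and 92.4% of those that code for protein. SEMA4B, PLXNB3 and UNC50 did not pass. Of the 62 members with a highest day mean of at least 5 CPM, 28 differed 10-fold or more between their highest and lowest day. Highest means fell on day 0 for 8 members, day 1 for 12, day 3 for 12, day 5 for 14, day 7 for 4, day 10 for 3, day 14 for 6 and day 28 for 10. These are days of the highest mean: for 52 of the 69, at least 1 library of another day reached the lowest library of that day, among them 13 of the 14 with their highest mean on day 5 and all 12 on day 1. The 10-fold range, the days of highest means and these overlaps were counted for members only. Whether they differ from those of all genes was not tested.

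**Figure D1:**
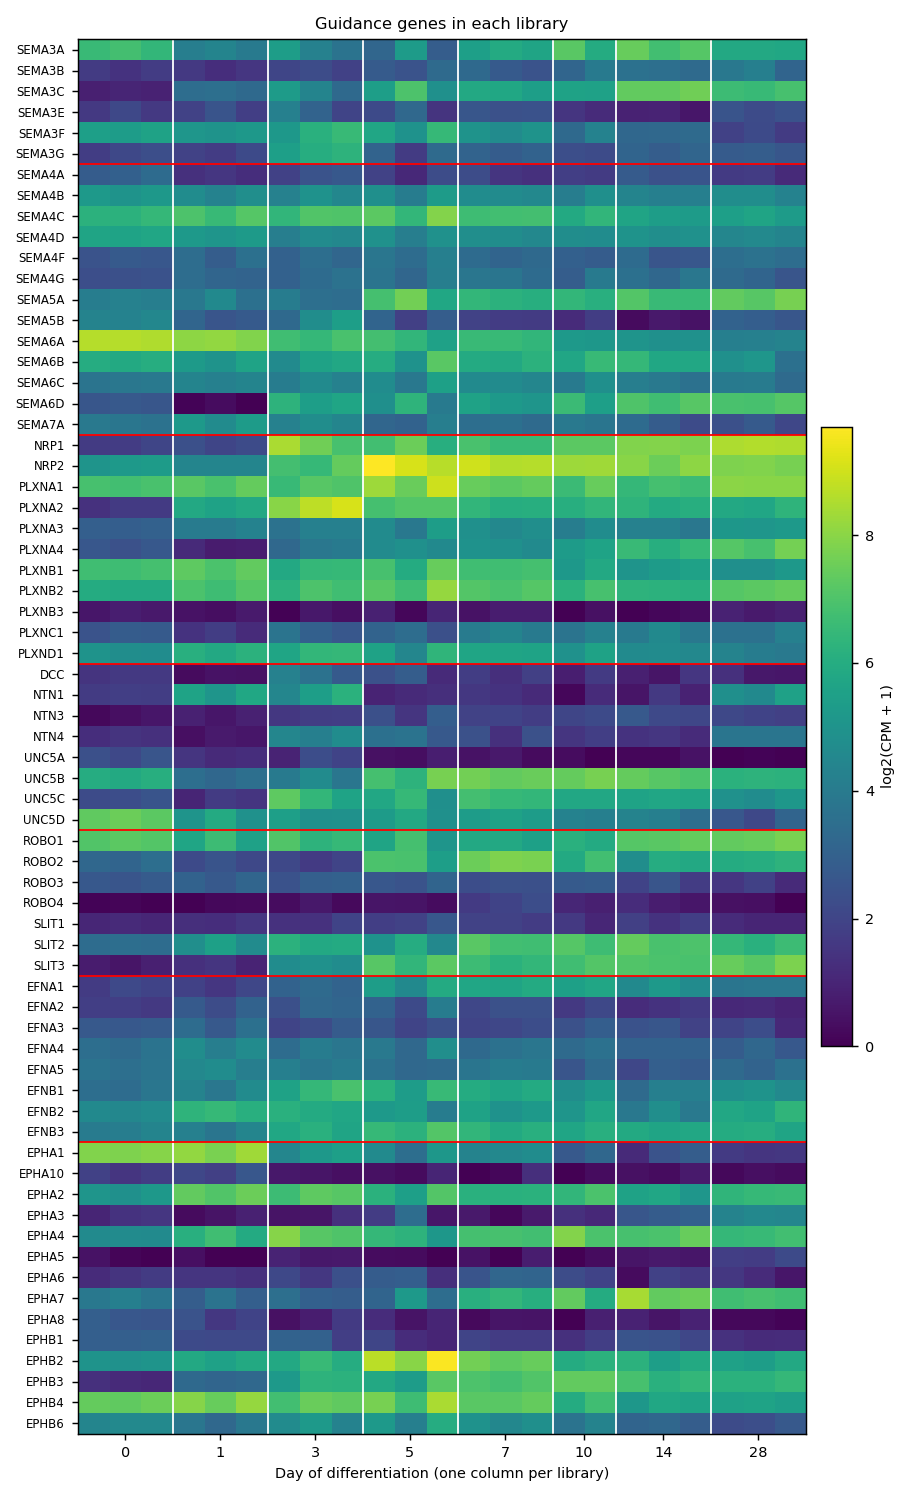
Level of each tested guidance gene of the role groups, as CPM on a log2 scale, with a column for each library from day 0 to 28. Rows are grouped by role, and UNC50 and UNC5CL are not drawn. Highest means are spread over all 8 days, and within a family genes highest in stem cells stand beside genes highest in the later cells.

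More members were called at the steps to day 1 and to day 3 than at any later step between neighbouring days. From day 0 to day 1, 20 members rose and 17 fell, beside a background of 31.8% of all genes called, 15.3% higher and 16.5% lower. The members' shares were 29.0% and 24.6%. From day 1 to day 3, 27 rose and 8 fell (background 37.2%, with 18.2% higher and 19% lower), or 39.1% and 11.6% of members. With library totals alone as scaling, which moved the median of all genes by 0.23 on the log2 scale, this split was 29 to 4. The fall count at day 1 was 11 without day 1 replicate 1 or without replicate 3. At day 3 it was 4 without either of these libraries and 3 without day 3 replicate 1.

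From day 3 to day 5, 13 members rose and 11 fell (background 16.6%, 10.3% higher and 6.33% lower). The day 5 libraries were the least alike of any day, with correlations of log CPM across genes of 0.907 to 0.956, against 0.968 or more on the other days. Without day 5 replicate 2, 20 rose and 20 fell. From day 5 to day 7, 5 rose and 5 fell (background 10.3%, 5.32% higher and 5.02% lower), and 9 rose and 8 fell without that library. With library totals alone the day 7 split was 6 to 3. The counts at both steps thus moved with that library.

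From day 7 to day 10, 0 members rose and 7 fell (background 7.67%, 4.17% higher and 3.5% lower) by edgeR's test. Of the rises, 3 had an unadjusted p under 0.05, and DESeq2 also called 0. With only the libraries of the 2 days fitted, 3 rose and 18 fell, and with no filter on low counts 1 rose. Without day 10 replicate 1, 0 of the falls passed, without day 7 replicate 3, 2 did, and without day 7 replicate 2, 4 did. From day 10 to day 14, 1 rose and 2 fell (background 3.74%, 1.64% higher and 2.11% lower), with 1 and 1 under library totals alone. DESeq2 called 4 rises and 3 falls, the fit with no filter 3 and 6, and the fit of the 2 days' libraries 4 and 5. Leaving out each library in turn gave 0 to 1 rises and 0 to 2 falls. From day 14 to day 28, 14 rose and 11 fell (background 15.7%, 7.96% higher and 7.78% lower). That split turned with the scaling: 11 rose and 14 fell with upper-quartile factors, and 10 rose and 15 fell with library totals alone, which moved the median of all genes by -0.12 and -0.21. Leaving out each of the 6 libraries of these days in turn gave 4 to 7 falls. Between day 0 and day 28, 33 members were higher and 21 lower (background 60.5%, 32.1% higher and 28.4% lower), or 47.8% and 30.4% of members. Among protein-coding genes, 31.7% were higher and 31.4% lower in that comparison.

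**Figure D2:**
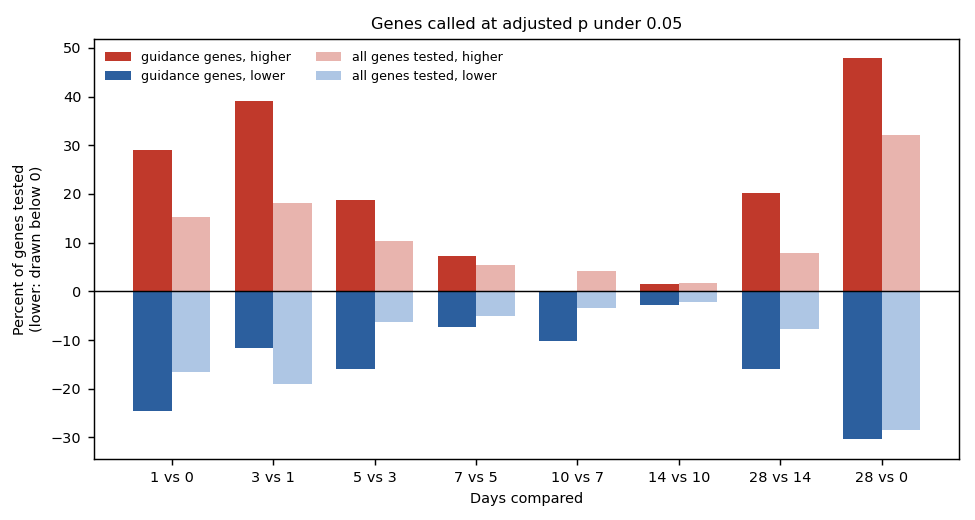
Percent of the 69 tested guidance genes called higher or lower in each of 8 comparisons, beside the percent of all 22245 genes tested that were called in the same direction. The members' share of rises at day 3 was 39.1% against 18.2% of all genes, and at day 10 it was 0% against 4.17%.

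Among the secreted class 3 semaphorins, 4 of 6 rose from day 1 to day 3 and 0 fell, beside 18.2% and 19% of all genes. Between day 0 and day 28, 3 were higher and 1 lower, beside 32.1% and 28.4% of all genes. The median log2 change of the 6 was 1.09 at day 3, against 0.04 for all genes. DESeq2 called 0 falls there too, and 0 had an unadjusted p under 0.05. Without day 3 replicate 1, 2 rose. SEMA3C, known for guiding neural crest cells into the outflow tract, had the widest range. It rose from 0.821, 0.989 and 0.923 CPM on day 0 to 10.1, 10.6 and 9.07 CPM on day 1 (day 1/day 0 log2 change 3.43 ± 0.49, adjusted p = 9.55e-06). It stood at 163, 162 and 194 CPM on day 14 and 99.1, 92.8 and 116 CPM on day 28, all above every day 0 library (day 28/day 0 log2 change 6.80 ± 0.53, adjusted p = 4.95e-11). Its day 5 libraries were uneven, at 41.8, 127 and 28.6 CPM.

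SEMA3A, the collapsin first described on sensory axons, was high on day 0 and again on day 14. On day 10 SEMA3A was uneven, at 104 ± 60.2 CPM over 2 libraries. It fell from 93.3, 110.2 and 85.5 CPM on day 0 to 16.5, 19.8 and 14.4 CPM on day 1 (day 1/day 0 log2 change -2.51 ± 0.48, adjusted p = 0.000392). By day 14 its libraries had 173, 107 and 140.3 CPM, and by day 28 56.2, 56.6 and 53.8 CPM, groups that do not overlap (day 28/day 14 log2 change -1.34 ± 0.46, adjusted p = 0.0488). That last call did not pass with a minimum of 1 CPM in 3 libraries (0.0531), without day 14 replicate 1 (0.175), without day 14 replicate 2 (0.0596), without day 14 replicate 3 (0.112), without day 28 replicate 1 (0.127), without day 28 replicate 2 (0.135) or without day 28 replicate 3 (0.16).

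SEMA3G, described mainly in endothelial cells, was high on day 3 alone. Its libraries had 2.78, 2.29 and 3.54 CPM on day 1, 43.2, 65.1 and 76.3 CPM on day 3 and 7.57, 2.23 and 9.19 CPM on day 5. The rise (day 3/day 1 log2 change 4.43 ± 0.36, adjusted p = 7.39e-10) and the fall (day 5/day 3 log2 change -3.36 ± 0.35, adjusted p = 9.58e-08) both separated all libraries. The 7 endothelial markers, all detected on days 3 to 7, summed to 58.3 to 65.7 CPM on day 1 and 70.5 to 149 on day 3. They summed to 105 to 121 CPM on day 5 and 205 to 249 on day 7. Within that list VWF went from at most 1.38 CPM on day 1 to 37.8, 74.2 and 99.9 CPM on day 3, while TEK went from 11.7, 22.4 and 8.56 to 3.06, 2.88 and 2.51 CPM. Endoderm and liver markers summed to 36.3 to 48.5 CPM on day 1, 122 to 245 on day 3 and 153 to 469 on day 5. Within this list SOX17 had 0 CPM on day 1, 77.5, 114.8 and 171.5 on day 3 and 8.53, 3.14 and 10.7 on day 5. FOXA2 had 46.7, 34.9 and 42.3 CPM on day 1 and 41.05, 63.6 and 70.3 on day 3. On day 3 AFP, ALB and TTR had at most 0.133 CPM and APOA1 at most 5.14. On day 5 TTR had 273.7, 75.3 and 277.6 CPM. The part of these cell types in the SEMA3G values was not tested.

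SEMA3F, a ligand that prefers NRP2, had its lowest levels late. It had 43.1, 40.0 and 47.1 CPM on day 0 and 2.66, 3.48 and 2.23 CPM on day 28 (day 28/day 0 log2 change -3.96 ± 0.38, adjusted p = 1.97e-09), and day 28 was also below day 14, at 8.35, 8.59 and 9.21 CPM (day 28/day 14 log2 change -1.64 ± 0.37, adjusted p = 0.00271). Of the others, SEMA3B rose slowly to its highest mean on day 28 (12.9 CPM, from 2.06 on day 0; day 28/day 0 log2 change 2.65 ± 0.33, adjusted p = 1.57e-07). SEMA3E was highest on day 3 (9.44 CPM) and lowest on day 14 (0.787), then rose (day 28/day 14 log2 change 2.43 ± 0.59, adjusted p = 0.00477).

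More membrane-bound semaphorins of classes 4 to 7 ended lower than higher: 4 of 13 were higher and 7 lower on day 28 than on day 0, with a median log2 change of -0.84 against 0.09 for all genes. Of all genes, 32.1% were higher and 28.4% lower in that comparison. Per kilobase of exon, the scale on which genes can be compared, the summed level of these 13 went from 82.0 ± 1.81 on day 0 to 54.8 ± 1.08 on day 28. SEMA6A made up 42.9% of it on day 0, and SEMA6D and SEMA5A made up 26.8% and 25.5% on day 28. The leading class 6 member thus differed between the ends of the course.

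SEMA6A, a plexin A ligand, fell in steps. It had 388, 389 and 373 CPM on day 0, 266, 279 and 233 CPM on day 1 and 105, 87.6 and 119 CPM on day 3 (day 3/day 1 log2 change -1.32 ± 0.24, adjusted p = 0.000113), and 17.2, 17.8 and 19.5 CPM by day 28 (day 28/day 0 log2 change -4.40 ± 0.27, adjusted p = 5.89e-13). SEMA6D, the ligand of PLXNA1 described in cardiac morphogenesis, ended higher, with a gap at day 1. Its libraries had 4.98, 5.51 and 5.08 CPM on day 0 and 0.0773, 0.244 and 0 CPM on day 1, where all 3 together held 6 counts (day 1/day 0 log2 change -5.21 ± 0.67, adjusted p = 2.15e-06). On day 3 they had 76.7, 42.3 and 51.5 CPM (day 3/day 1 log2 change 8.66 ± 0.66, adjusted p = 1.64e-10), the largest rise of any member between neighbouring days. On days 5 and 7 they had 27.6, 78.4 and 14.4 CPM and then 47.3, 37.1 and 32.5 CPM. On days 14 and 28 they had 129, 104 and 145 CPM and then 118, 115 and 141 CPM, each above every library of days 0 to 10. Day 28 was above day 0 throughout (day 28/day 0 log2 change 4.59 ± 0.46, adjusted p = 4.55e-09).

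SEMA5A and SEMA5B, which carry thrombospondin repeats, moved apart. SEMA5A rose from 15.7, 10.7 and 10.2 CPM on day 3 to 112, 196 and 53.4 CPM on day 5 (day 5/day 3 log2 change 3.31 ± 0.36, adjusted p = 1.7e-07) and had 166, 143 and 207 CPM on day 28. SEMA5B dropped from 19.3, 18.9 and 21.4 CPM on day 0 to 8.04, 4.93 and 5.79 CPM on day 1, regained 9.06, 26.3 and 42.0 CPM on day 3 and dropped again to 7.69, 2.58 and 6.21 CPM on day 5 (day 5/day 3 log2 change -2.27 ± 0.41, adjusted p = 0.000217). On day 14 it had 0.226, 0.597 and 0.379 CPM, 10 counts in all, and on day 28 7.32, 6.41 and 4.97 CPM (day 28/day 14 log2 change 3.94 ± 0.58, adjusted p = 1.94e-05).

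SEMA4A, a class 4 member also described in immune cells, fell from 6.07, 6.83 and 9.40 CPM on day 0 to 1.55, 1.90 and 1.38 CPM on day 1 (day 1/day 0 log2 change -2.18 ± 0.36, adjusted p = 6.87e-05). SEMA4D, a PLXNB1 ligand, went from 35.9, 32.6 and 37.5 CPM on day 1 to 16.8, 24.5 and 22.1 CPM on day 3 (day 3/day 1 log2 change -0.74 ± 0.22, adjusted p = 0.00854). This call did not pass with library totals alone (0.0596), with no filter on low counts (0.075), with only the libraries of the 2 days fitted (0.0743), without day 1 replicate 3 (0.0514) or without day 3 replicate 1 (0.0871). Over the whole course SEMA4D fell from 50.5 to 21.1 CPM (day 28/day 0 log2 change -1.25 ± 0.22, adjusted p = 1.96e-05). SEMA4C ranged from 43.3 (day 14) to 157 CPM (day 5) and SEMA4B from 17.9 to 33.9 CPM. SEMA4F, SEMA4G and SEMA6C were highest on day 5 at 13.4, 12.5 and 28.0 CPM. For SEMA4G, 28% of the exon length overlaps a gene on the opposite strand, and the strand setting of the counting is not given in the sources used here. SEMA7A, a GPI-anchored semaphorin, peaked on day 1 at 33.3 CPM and was lowest on day 28 at 4.32 (day 28/day 0 log2 change -1.57 ± 0.32, adjusted p = 0.000152). SEMA6B had 86.4, 54.0 and 55.4 CPM on day 14 and 28.2, 33.1 and 10.8 CPM on day 28 (day 28/day 14 log2 change -1.44 ± 0.43, adjusted p = 0.0219), a call that did not pass with only the libraries of the 2 days fitted (0.0507), without day 14 replicate 1 (0.124) or without day 28 replicate 3 (0.15).

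Most semaphorin receptors were higher at the end of the course. Of 11 plexins and neuropilins, 8 were higher and 2 lower on day 28 than on day 0, beside 32.1% and 28.4% of all genes. Their median log2 change was 1.36, against 0.09 for all genes. From day 14 to day 28, 5 rose and 0 fell, beside 7.96% and 7.78% of all genes. The second lower gene beside PLXNB1 was PLXND1, a call lost with RLE factors (0.0672), with upper-quartile factors (0.0514), with DESeq2 (0.0629), with the replicate number as a block (0.0511), without day 0 replicate 1 (0.127), without day 0 replicate 2 (0.09), without day 0 replicate 3 (0.0887), without day 28 replicate 1 (0.0646), without day 28 replicate 2 (0.141) or without day 28 replicate 3 (0.184). At day 28 against day 14 DESeq2 also called 0 falls, and 0 had an unadjusted p under 0.05 in edgeR's test. Among the 5 rises was PLXNB3, near the floor with means of 0.124 CPM on day 14 and 0.766 on day 28. Its call was lost in 6 settings, with the largest adjusted p without day 14 replicate 1 (0.18). The 5 rises became 3 with library totals alone and without day 14 replicate 2, day 14 replicate 3 or day 28 replicate 3. Per kilobase their summed level was 36.5 ± 1.36 on day 0, 138 ± 26.9 on day 5 and 115 ± 4.87 on day 28. PLXNB1 and PLXNA1 led on day 0, PLXNA2 and NRP1 on day 3, NRP2 on days 5 to 10, and NRP1 on days 14 and 28.

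NRP1, the co-receptor of class 3 semaphorins that also binds VEGF, was near the bottom of the range in stem cells and on day 1 (2.24, 2.26 and 3.06 CPM, then 4.10, 3.12 and 3.63 CPM). On day 3 it had 355, 189.9 and 116 CPM (day 3/day 1 log2 change 5.93 ± 0.40, adjusted p = 2.6e-11). It stood at 234, 239.8 and 221 CPM on day 14 and 363, 386 and 369 CPM on day 28, the highest day (day 28/day 0 log2 change 7.21 ± 0.42, adjusted p = 2.04e-13). NRP2, the other neuropilin, was highest on day 5. It had 20.5, 20.2 and 20.3 CPM on day 1, 109.9, 89.0 and 169 CPM on day 3 (day 3/day 1 log2 change 2.59 ± 0.27, adjusted p = 4.76e-08) and 829.6, 554 and 402 CPM on day 5 (day 5/day 3 log2 change 2.28 ± 0.27, adjusted p = 5.28e-07), and 228, 235 and 209 CPM remained on day 28. Both neuropilins thus rose at day 3, and NRP2 rose again at day 5, when the NRP1 libraries overlapped those of day 3.

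PLXNA2, a class A plexin, rose from 1.59, 2.17 and 2.13 CPM on day 0 to 57.1, 46.9 and 57.4 CPM on day 1 (day 1/day 0 log2 change 4.77 ± 0.30, adjusted p = 1.19e-11) and to 250.4, 421 and 555 CPM on day 3 (day 3/day 1 log2 change 2.93 ± 0.27, adjusted p = 5.03e-09). It then dropped to 115, 136 and 138 CPM on day 5 (day 5/day 3 log2 change -1.66 ± 0.26, adjusted p = 2.72e-05) and had day means between 62.3 and 74.7 CPM from day 7 on. PLXNA4 fell from 5.14, 4.33 and 5.42 CPM on day 0 to 1.24, 0.683 and 0.778 CPM on day 1 (day 1/day 0 log2 change -2.48 ± 0.31, adjusted p = 1.67e-06), then rose to 8.57, 13.5 and 14.8 CPM on day 3 (day 3/day 1 log2 change 3.77 ± 0.31, adjusted p = 8.01e-10) and reached 139, 116 and 203 CPM on day 28 (day 28/day 0 log2 change 4.94 ± 0.29, adjusted p = 2.55e-13). PLXNA1, the receptor of SEMA6D, had 86.8, 113 and 99.4 CPM on day 14 and 255, 248 and 249.9 CPM on day 28 (day 28/day 14 log2 change 1.33 ± 0.29, adjusted p = 0.00172). PLXNB2, a broadly expressed class B plexin, had 75.7, 73.5 and 69.1 CPM and then 140.0, 153 and 168 CPM on these days (day 28/day 14 log2 change 1.08 ± 0.28, adjusted p = 0.00929).

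PLXNB1, the SEMA4D receptor, had 106, 101 and 113 CPM on day 0 and 27.6, 27.8 and 35.0 CPM on day 28 (day 28/day 0 log2 change -1.82 ± 0.29, adjusted p = 7.92e-06). Its drop from 157, 122 and 165 CPM on day 1 to 57.0, 87.7 and 89.7 CPM on day 3 (day 3/day 1 log2 change -0.92 ± 0.29, adjusted p = 0.0133) did not pass with library totals alone (0.0569), without day 1 replicate 1 (0.0572), without day 1 replicate 3 (0.0736) or without day 3 replicate 1 (0.106). PLXNA3, a partner of NRP2, rose over the course from 6.67 to 34.6 CPM (day 28/day 0 log2 change 2.37 ± 0.30, adjusted p = 1.64e-07). PLXNC1, the SEMA7A receptor, rose at day 3 (day 3/day 1 log2 change 2.15 ± 0.36, adjusted p = 4.4e-05) with a mean of 8.08 CPM. PLXND1, known from the endothelium, was highest on day 3 at 74.7 CPM, after a rise at day 1 (day 1/day 0 log2 change 1.28 ± 0.31, adjusted p = 0.00342), and lowest on day 28 at 16.4. PLXNB3 stayed at or below 0.993 CPM in every library.

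**Figure D3:**
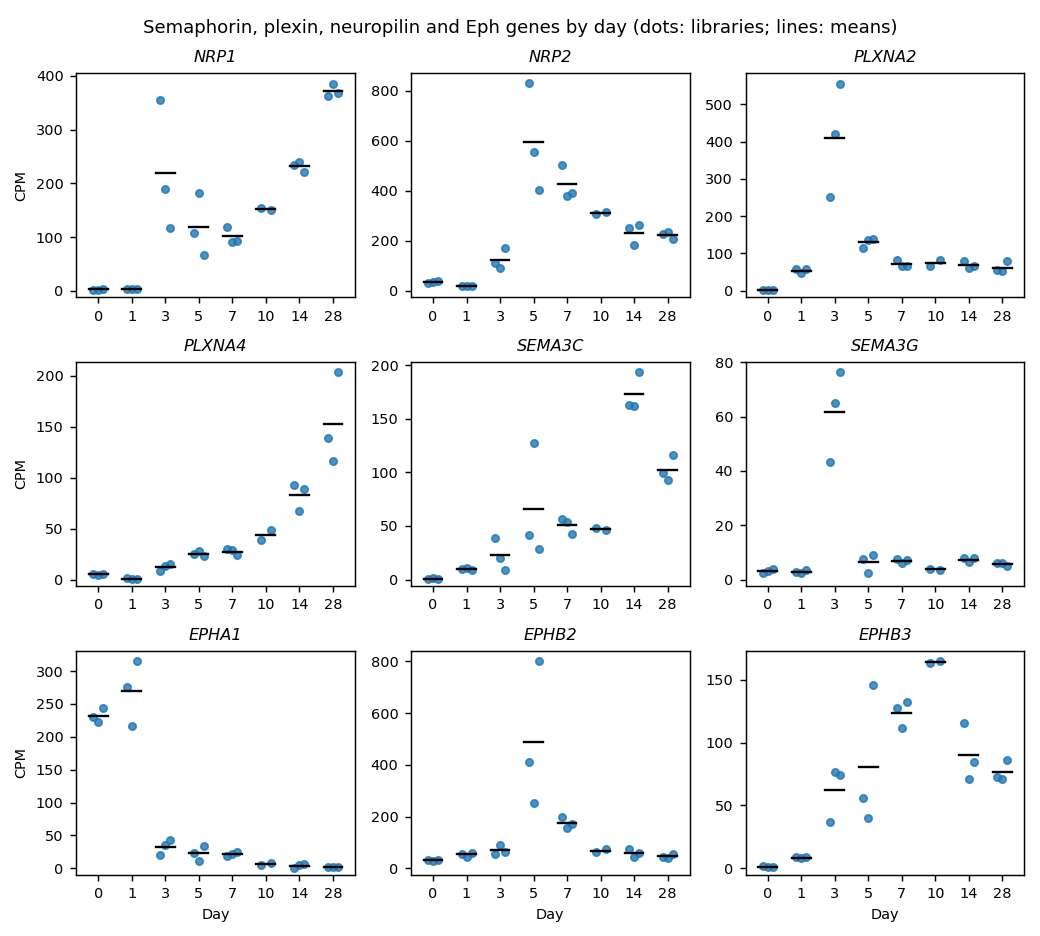
CPM of NRP1, NRP2, PLXNA2, PLXNA4, SEMA3C, SEMA3G, EPHA1, EPHB2 and EPHB3 by day, each on its own axis from near 0, with a dot for each library and a line for the day mean. PLXNA2 and SEMA3G peak on day 3, NRP2 and EPHB2 on day 5, and NRP1 and PLXNA4 on day 28.

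DCC, the UNC5 receptors and the ligand NTN4 fell on day 1, and most genes of the netrin group rose on day 3. Of 8 tested, 6 fell and 1 rose from day 0 to day 1, beside 16.5% and 15.3% of all genes (median log2 change -1.55, against 0.05). From day 1 to day 3, 5 rose and 0 fell, beside 18.2% and 19% of all genes, with a median of 1.25 against 0.04. No fall had an unadjusted p under 0.05 in edgeR's test or a call by DESeq2. Between day 3 and day 5, 4 fell and 1 rose, beside 6.33% and 10.3% of all genes. Without day 5 replicate 2, 5 fell and 2 rose. Without day 1 replicate 2, 2 rose on day 1. The gene that rose on day 1 was the ligand NTN1.

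NTN1 codes for netrin-1, the secreted ligand of DCC and the UNC5 receptors. Its libraries had 2.19, 2.45 and 2.42 CPM on day 0 and 48.0, 32.4 and 54.4 CPM on day 1 (day 1/day 0 log2 change 4.25 ± 0.44, adjusted p = 7.19e-08). Day 3 held 21.1, 41.8 and 72.6 CPM, overlapping day 1. On day 5 only 0.961, 1.25 and 1.49 CPM remained, 32 counts in all (day 5/day 3 log2 change -5.21 ± 0.50, adjusted p = 2.31e-08), and days 7 to 14 stayed at or below 2.03 CPM in each library. On day 28 it was back at 27.3, 23.6 and 45.6 CPM (day 28/day 14 log2 change 4.84 ± 0.50, adjusted p = 1.22e-07). Netrin-1 RNA was thus high in 2 separate windows, days 1 to 3 and day 28, with no overlap between these and the days between.

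NTN4, a more distant netrin of basement membranes, shared the second window and part of the first. It fell from a mean of 1.57 CPM on day 0 to 0.487 CPM on day 1, where NTN1 rose. It had 0.309, 0.634 and 0.518 CPM on day 1, 20.8, 17.2 and 25.0 CPM on day 3 (day 3/day 1 log2 change 5.36 ± 0.38, adjusted p = 6.69e-11), 1.69, 1.91 and 1.26 CPM on day 14 and 12.7, 12.5 and 12.8 CPM on day 28 (day 28/day 14 log2 change 2.95 ± 0.35, adjusted p = 8.3e-07). Day 28 also differed from day 14 in cell type markers: fibroblast and stroma markers summed to 354 to 589 CPM on day 14 and 2763 to 3212 on day 28, and smooth muscle markers to 242 to 442 and 2244 to 2774. All 5 and all 4 of these markers were detected on both days. Their part in the day 28 values of NTN1, NTN4 and the other members was not tested. NTN3, a minor netrin, was low throughout and highest on day 5 at 4.16 CPM, and NTN5 did not exceed 0.36 CPM in any library.

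DCC and UNC5C, netrin receptors with opposite roles in axon turning, both rose on day 3. DCC had 1.75, 2.03 and 2.08 CPM on day 0, 0.232, 0.390 and 0.346 CPM on day 1 and 18.4, 11.6 and 5.63 CPM on day 3 (day 3/day 1 log2 change 5.14 ± 0.57, adjusted p = 1.2e-07), and from day 7 on no library exceeded 2.59 CPM. UNC5C rose from 1.00, 2.20 and 1.81 CPM on day 1 to 157, 85.8 and 47.9 CPM on day 3 (day 3/day 1 log2 change 5.82 ± 0.44, adjusted p = 1.62e-10) and kept 48.3, 52.7 and 49.5 CPM on day 14. UNC5B, a netrin receptor of vessels, peaked later. It fell from 62.9, 58.2 and 67.0 CPM on day 0 to 10.2, 8.49 and 10.7 CPM on day 1 (day 1/day 0 log2 change -2.68 ± 0.30, adjusted p = 2.54e-07), then rose from 15, 24.6 and 12.9 CPM on day 3 to 113, 76.5 and 207 CPM on day 5 (day 5/day 3 log2 change 2.91 ± 0.30, adjusted p = 7.24e-08). On day 10 it was highest, at 169.7 and 207 CPM. Per kilobase it made up 75.1% of the summed netrin and receptor level that day, and 46.1% on day 28.

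UNC5D, the receptor that led the group in stem cells with 57.2% of its summed level per kilobase, fell early. It had 162, 184 and 154 CPM on day 0, 31.5, 59.7 and 29.0 CPM on day 1 (day 1/day 0 log2 change -2.05 ± 0.32, adjusted p = 2.67e-05), 19.1, 17.1 and 10.5 CPM on day 14 and 5.25, 3.32 and 7.64 CPM on day 28 (day 28/day 14 log2 change -1.52 ± 0.33, adjusted p = 0.0018). UNC5A fell as well, from 4.16, 3.25 and 4.90 CPM on day 0 to 1.85, 1.22 and 1.38 CPM on day 1 (day 1/day 0 log2 change -1.47 ± 0.41, adjusted p = 0.00853), and day 28 held a single count over all libraries. Every UNC5 receptor and DCC was therefore lower on day 1 than on day 0, and the fall of UNC5C (day 1/day 0 log2 change -1.26 ± 0.41, adjusted p = 0.0205) was the one call among them that did not pass everywhere: it was lost without day 0 replicate 2 (0.0525), without day 0 replicate 3 (0.0707), without day 1 replicate 1 (0.123) or without day 1 replicate 3 (0.0614).

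**Figure D4:**
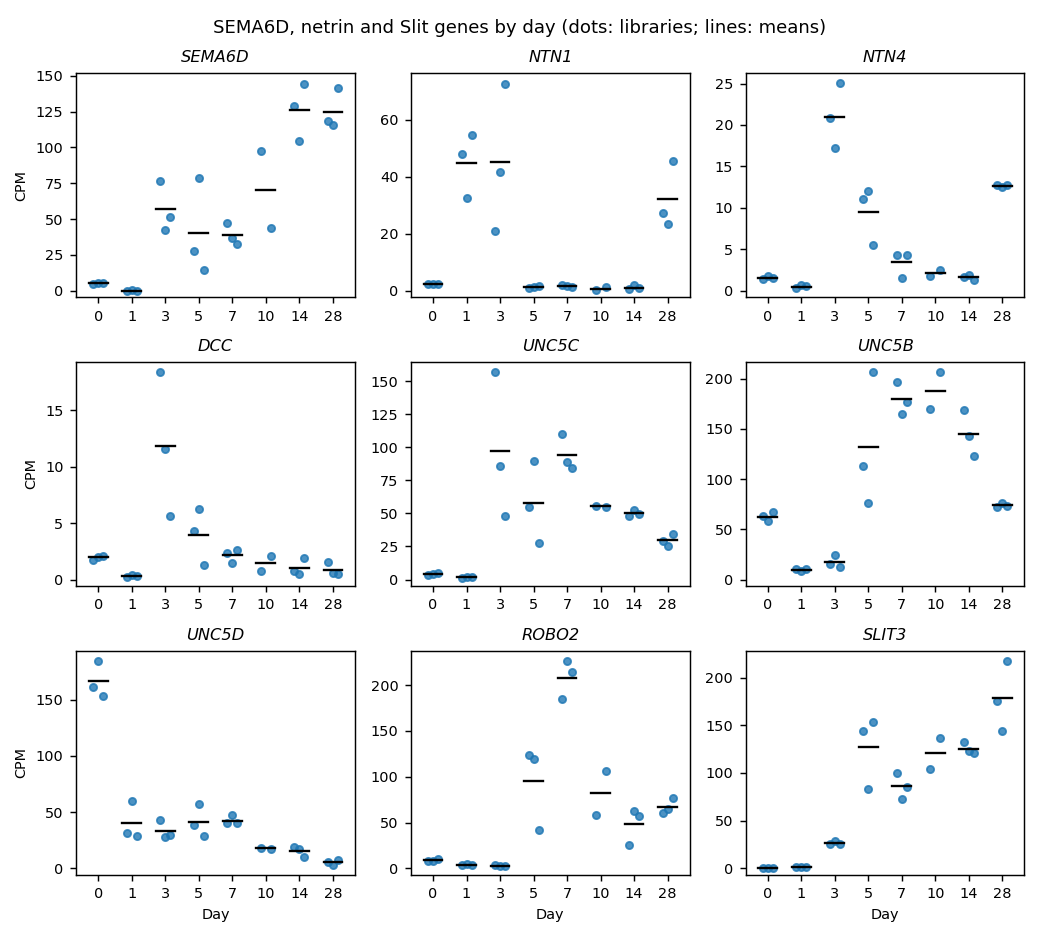
CPM of netrin, DCC, UNC5, Slit, Robo and SEMA6D genes by day, with a dot for each library and a line for the day mean, each panel on its own axis. NTN1 is high on days 1, 3 and 28 and at most 2.03 CPM on days 5 to 14, and SEMA6D is at most 0.244 CPM on day 1.

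The start regions of 4 genes that rose together on day 3, DCC, UNC5C, SLIT3 and SEMA3G, are shown because each has a single listed start in the RefSeq promoter table (GRCh38.p14). Each line gives the 250 bases before the start, 5′ to 3′ on the gene's strand, with CG dinucleotides, the sites of DNA methylation, in capitals. DCC lies at chr18:52339947-52340196 (+ strand), UNC5C at chr4:95548974-95549223 (- strand), SLIT3 at chr5:169301140-169301389 (- strand) and SEMA3G at chr3:52445104-52445353 (- strand).
DCC: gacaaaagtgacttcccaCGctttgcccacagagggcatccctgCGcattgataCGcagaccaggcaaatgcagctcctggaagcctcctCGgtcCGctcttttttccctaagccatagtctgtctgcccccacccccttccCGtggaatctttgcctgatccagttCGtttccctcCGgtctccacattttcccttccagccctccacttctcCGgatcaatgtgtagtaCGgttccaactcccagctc
UNC5C: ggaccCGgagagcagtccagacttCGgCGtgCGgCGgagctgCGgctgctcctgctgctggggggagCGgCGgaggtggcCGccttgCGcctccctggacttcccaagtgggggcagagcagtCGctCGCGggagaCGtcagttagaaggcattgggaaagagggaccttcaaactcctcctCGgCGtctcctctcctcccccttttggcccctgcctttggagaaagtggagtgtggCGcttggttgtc
SLIT3: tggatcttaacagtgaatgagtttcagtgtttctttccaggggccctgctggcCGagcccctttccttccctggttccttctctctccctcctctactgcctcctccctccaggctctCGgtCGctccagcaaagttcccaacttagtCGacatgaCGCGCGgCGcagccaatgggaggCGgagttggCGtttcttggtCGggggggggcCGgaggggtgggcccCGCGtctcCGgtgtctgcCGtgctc
SEMA3G: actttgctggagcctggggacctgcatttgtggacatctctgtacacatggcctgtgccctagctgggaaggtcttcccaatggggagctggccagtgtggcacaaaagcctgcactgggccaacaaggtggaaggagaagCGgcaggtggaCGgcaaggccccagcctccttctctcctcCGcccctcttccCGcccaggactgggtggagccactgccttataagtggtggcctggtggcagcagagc
They hold 10, 17, 16 and 4 CG dinucleotides. The median over the 93 windows of the 61 members found in the table was 17, and over all 35116 windows 11. Searched on both strands, the GATA motif AGATAA, the T-box motif AGGTGTG and the TCF and LEF motif CTTTGAT had no match in these 4 windows. They were present in 9.17%, 3.84% and 2.26% of all windows and in 7.53%, 1.08% and 3.23% of the members' windows. The E-box CANNTG was in 61.8% of all windows and 53.8% of the members'. The counts do not tell which start was used.

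Of 3 Slit ligands, which are secreted and bind Robo receptors, SLIT2 and SLIT3 were higher on day 28 than on day 0, and SLIT1 did not pass, with means of 1.10 and 1.09 CPM. Of 4 Robo receptors, ROBO2 was higher, ROBO3 was lower, and ROBO1 and ROBO4 did not pass. In that comparison 32.1% of all genes were higher and 28.4% lower. Per kilobase the family's summed level went from 15.1 ± 0.77 on day 0 to 41.4 ± 6.41 on day 28. ROBO1 made up 84.3% of it on day 0. On day 28 ROBO1 made up 40.3% and SLIT3 30.3%.

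SLIT3 had the largest rise of any member between day 0 and day 28. It had 0.656, 0.471 and 0.808 CPM on day 0, 1.55, 1.81 and 0.951 CPM on day 1 and 25.3, 29.0 and 25.2 CPM on day 3 (day 3/day 1 log2 change 4.17 ± 0.30, adjusted p = 9.11e-11). It rose again to 144, 83.5 and 154 CPM on day 5 (day 5/day 3 log2 change 2.26 ± 0.26, adjusted p = 4.2e-07) and had 175, 144 and 217 CPM on day 28 (day 28/day 0 log2 change 8.11 ± 0.35, adjusted p = 1.04e-15). SLIT2 rose from 9.68, 10.4 and 9.69 CPM on day 0 to 26.4, 44.9 and 24.5 CPM on day 1 (day 1/day 0 log2 change 1.69 ± 0.31, adjusted p = 0.000282) and to 74.0, 56.1 and 60.7 CPM on day 3 (day 3/day 1 log2 change 0.99 ± 0.30, adjusted p = 0.0125), the latter lost without day 1 replicate 3 (0.0503). It rose again from 29.4, 62.9 and 21.9 CPM on day 5 to 147, 108 and 105 CPM on day 7 (day 7/day 5 log2 change 1.64 ± 0.31, adjusted p = 0.00078). SLIT1 stayed at or below 5.22 CPM in every library, with its highest mean on day 5 (3.51 CPM).

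ROBO2, a Slit receptor, rose from 3.29, 2.10 and 3.01 CPM on day 3 to 124, 119.5 and 42.2 CPM on day 5 (day 5/day 3 log2 change 5.08 ± 0.40, adjusted p = 9.29e-10) and was highest on day 7, at 185, 226 and 214 CPM. ROBO1 was abundant at both ends, at 135, 151 and 137 CPM on day 0 and 162, 174 and 217 CPM on day 28, with a lowest mean of 52.4 CPM on day 7. The day with the lowest mean of ROBO1 had the highest of ROBO2. On day 1, however, ROBO1 was also low, at 65.3 ± 30.2 CPM, while ROBO2 had only 3.86 ± 0.77 CPM. ROBO3, a Robo that does not bind Slit in mammals, fell from 5.38 to 1.95 CPM over the course (day 28/day 0 log2 change -1.46 ± 0.31, adjusted p = 0.000236). ROBO4, the endothelial Robo, was weak and highest on day 7. It had 0.481, 0.418 and 0.248 CPM on day 5, 2.16, 2.89 and 3.84 CPM on day 7 (day 7/day 5 log2 change 2.86 ± 0.58, adjusted p = 0.00154) and 1.03 and 0.827 CPM on day 10. The 7 endothelial markers, all detected, summed to 205 to 249 CPM on day 7 and to 25.2 to 149 CPM on the other days. Their part in the ROBO4 values was not tested. Of the ROBO4 exon length, 18% overlaps genes on the opposite strand.

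Of 8 ephrins, 4 rose and 0 fell from day 0 to day 1, beside 15.3% and 16.5% of all genes. Their median log2 change was 0.83, against 0.05 for all genes. At day 3, 3 rose and 2 fell, with a median of -0.02 against 0.04, beside 18.2% of all genes higher and 19% lower. The 2 falls, of EFNA3 and EFNA4, became 0 with library totals alone and without day 1 replicate 1, day 1 replicate 3 or day 3 replicate 1, and 1 without day 3 replicate 2 or 3. None of the falls at day 1 had an unadjusted p under 0.05 in edgeR's test or a call by DESeq2. The summed level per kilobase was 28.8 ± 2.54 on day 0, 97.9 ± 33.8 on day 5 and 53.7 ± 2.13 on day 28. EFNA4 led on days 0 and 1, EFNB1 on day 3, EFNB3 on day 5, EFNA1 on days 7 and 10 and EFNB3 again on days 14 and 28.

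EFNA1, a GPI-anchored ligand of EphA receptors such as EPHA2, rose on day 3 from 2.71, 1.90 and 3.20 CPM to 7.37, 9.26 and 7.53 CPM (day 3/day 1 log2 change 1.65 ± 0.30, adjusted p = 0.000147) and on day 5 to 41.2, 23.4 and 60.3 CPM (day 5/day 3 log2 change 2.36 ± 0.29, adjusted p = 9.98e-07). It was highest on day 7 (52.4, 50.0 and 60.1 CPM). By day 28 it had 12.5, 13.5 and 13.3 CPM, below the 23.5, 37.5 and 24.9 CPM of day 14 (day 28/day 14 log2 change -1.13 ± 0.28, adjusted p = 0.0055), and this fall did not pass without day 14 replicate 2 (0.0639). EFNB2, the ephrin of arteries, had 23.2, 21.7 and 24.3 CPM on day 0, 78.0, 88.3 and 67.6 CPM on day 1 (day 1/day 0 log2 change 1.76 ± 0.31, adjusted p = 0.000162), 13.8, 26.8 and 14.0 CPM on day 14 and 55.9, 48.5 and 80.5 CPM on day 28 (day 28/day 14 log2 change 1.76 ± 0.32, adjusted p = 0.000244). For EFNB2, 36.4% of the exon length overlaps a gene on the opposite strand.

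EFNB1, a transmembrane ephrin, rose at day 3 from 19.1, 13.3 and 24.5 CPM to 47.3, 87.9 and 118 CPM (day 3/day 1 log2 change 2.16 ± 0.33, adjusted p = 1.47e-05). EFNB3, also transmembrane, rose at day 3 (day 3/day 1 log2 change 1.78 ± 0.25, adjusted p = 5.34e-06) and was highest on day 5 at 101 CPM. EFNA4, another GPI-anchored ephrin, rose on day 1 from 10.4, 9.19 and 11.9 CPM to 26.3, 16.5 and 24.9 CPM (day 1/day 0 log2 change 1.10 ± 0.30, adjusted p = 0.0076). Its day 3 libraries had 9.82, 15.6 and 13.2 CPM (day 3/day 1 log2 change -0.81 ± 0.30, adjusted p = 0.0353), a fall that did not pass with upper-quartile factors (0.0668), with library totals alone (0.116), with no filter on low counts (0.0529), with only the libraries of the 2 days fitted (0.071), without day 1 replicate 1 (0.161), without day 1 replicate 3 (0.14), without day 3 replicate 1 (0.192) or without day 3 replicate 3 (0.0813). EFNA2 was highest on day 5 at 8.88 CPM, and EFNA3 and EFNA5 on day 1 at 8.78 and 21.2 CPM. EFNA3 and EFNA4 share 43.9% and 15% of their exon length with the read-through gene on the same strand, and how reads there were assigned is not given in the sources used here.

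Eph receptors split evenly, with 6 of 14 higher and 6 lower on day 28 than on day 0, beside 32.1% and 28.4% of all genes. They had a median log2 change of 0.09, as for all genes (0.09). Their summed level per kilobase was 97.4 ± 4.83 on day 0, 153 ± 23.9 on day 1 and 73.2 ± 5.22 on day 28. EPHA1 led on days 0 and 1 with 50.8% and 37.4% of it, EPHA2 on day 3, EPHB2 on day 5, EPHB3 from day 7 to day 14 and EPHA2 again on day 28.

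EPHA1, the founding member of the Eph family, was highest in the stem cells and on day 1. It had 229.7, 223 and 244 CPM on day 0 and 276, 216 and 315 CPM on day 1, but 20.8, 34.9 and 43.2 CPM on day 3 (day 3/day 1 log2 change -3.04 ± 0.39, adjusted p = 1.14e-06). On day 28 it had 2.14, 1.85 and 1.95 CPM (day 28/day 0 log2 change -6.87 ± 0.48, adjusted p = 5.9e-12). EPHA8 fell with it from a lower level, 6.67, 5.23 and 4.96 CPM on day 0 to 0.148, 0.154 and 0.0721 CPM on day 28, the latter 5 counts in all (day 28/day 0 log2 change -5.39 ± 0.66, adjusted p = 1.13e-07). EPHA2, a receptor of EFNA1, rose on day 1 from 31.9, 27.9 and 34.7 CPM to 166, 132 and 184 CPM (day 1/day 0 log2 change 2.35 ± 0.31, adjusted p = 3.33e-06) and had 80.7, 88.5 and 94.4 CPM on day 28 (day 28/day 0 log2 change 1.48 ± 0.30, adjusted p = 0.000154).

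EPHB3, a receptor of transmembrane ephrins, was nearly silent in stem cells and rose at both early steps. It went from 1.53, 1.23 and 1.10 CPM on day 0 to 8.96, 7.86 and 8.73 CPM on day 1 (day 1/day 0 log2 change 2.72 ± 0.39, adjusted p = 1.18e-05) and 36.6, 76.8 and 74.6 CPM on day 3 (day 3/day 1 log2 change 2.88 ± 0.36, adjusted p = 7.81e-07). Its highest libraries were those of day 10, 164 and 165 CPM, and day 28 had 72.3, 71.3 and 86.1 CPM (day 28/day 0 log2 change 5.89 ± 0.42, adjusted p = 1.08e-11). EPHB2, a related receptor, rose from 56.5, 91.7 and 63.5 CPM on day 3 to 412, 253 and 802 CPM on day 5 (day 5/day 3 log2 change 2.79 ± 0.32, adjusted p = 4.2e-07), and no library of another day reached 200 CPM. Day 5 replicate 2 was the lowest of that day for EPHB2.

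EPHA4, a receptor that binds both ephrin classes, rose from 23.7, 24.4 and 24.2 CPM on day 0 to 68.6, 105 and 60.1 CPM on day 1 (day 1/day 0 log2 change 1.69 ± 0.32, adjusted p = 0.000341) and 246, 143 and 130.1 CPM on day 3 (day 3/day 1 log2 change 1.15 ± 0.32, adjusted p = 0.00557). It dropped to 88.0, 75.7 and 33.8 CPM on day 5 (day 5/day 3 log2 change -1.39 ± 0.32, adjusted p = 0.0025), a fall that did not pass with only the libraries of the 2 days fitted (0.0962). EPHA7 and EPHA3, receptors of GPI-anchored ephrins, came late. EPHA7 had 7.81, 37.4 and 10.2 CPM on day 5, 68.1, 83.8 and 66.9 CPM on day 7 (day 7/day 5 log2 change 1.94 ± 0.44, adjusted p = 0.00416) and 342, 163 and 180.4 CPM on day 14. EPHA3 had 5.08, 6.08 and 6.81 CPM on day 14 and 19.3, 21.8 and 21.0 CPM on day 28 (day 28/day 14 log2 change 1.79 ± 0.48, adjusted p = 0.0109). EPHB4, the venous receptor of EFNB2, was highest on day 1 (234 CPM) and lowest on day 28 (45.5 CPM), below day 0 (day 28/day 0 log2 change -1.92 ± 0.33, adjusted p = 1.82e-05). EPHB6, a receptor without kinase activity, was highest on day 5 at 38.6 CPM and lower on day 28 than on day 0 (day 28/day 0 log2 change -2.30 ± 0.35, adjusted p = 4.03e-06). EPHA10, EPHB1, EPHA6 and EPHA5 peaked at 3.65 CPM (day 1), 6.80 (day 0), 6.89 (day 7) and 2.79 (day 28).

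Several changes between days 5 and 14 did not pass in every setting. From day 5 to day 7, PLXNA1, the SEMA6D receptor, fell from 307, 179 and 501 CPM to 173, 151 and 169.6 CPM (day 7/day 5 log2 change -0.998 ± 0.29, adjusted p = 0.0237), a call lost with library totals alone (0.0652), with only the libraries of the 2 days fitted (0.25), without day 5 replicate 3 (0.134), without day 7 replicate 1 (0.0844), without day 7 replicate 2 (0.143) or without day 7 replicate 3 (0.0962). PLXNA2 fell to 82.8, 65.0 and 67.1 CPM (day 7/day 5 log2 change -0.85 ± 0.25, adjusted p = 0.0301), lost with library totals alone (0.09), with no filter on low counts (0.0945), with only the libraries of the 2 days fitted (0.284), without day 5 replicate 2 (0.0536), without day 7 replicate 1 (0.0639), without day 7 replicate 2 (0.18) or without day 7 replicate 3 (0.156). PLXNC1 rose from 7.57, 10.2 and 4.22 CPM to 15.5, 19.8 and 14.6 CPM (day 7/day 5 log2 change 1.13 ± 0.34, adjusted p = 0.0309), lost with only the libraries of the 2 days fitted (0.129), without day 5 replicate 1 (0.085), without day 5 replicate 3 (0.0806) or without day 7 replicate 2 (0.115). ROBO2 rose to its day 7 values (day 7/day 5 log2 change 1.12 ± 0.33, adjusted p = 0.0296), lost with only the libraries of the 2 days fitted (0.174), without day 5 replicate 3 (0.077), without day 7 replicate 2 (0.087) or without day 7 replicate 3 (0.072). The falls of NTN4 to 4.32, 1.57 and 4.36 CPM (day 7/day 5 log2 change -1.53 ± 0.33, adjusted p = 0.00255) and of EPHB2 to 199.9, 157 and 172 CPM (day 7/day 5 log2 change -1.47 ± 0.31, adjusted p = 0.00206) were each lost in 1 setting, NTN4 with only the libraries of the 2 days fitted (0.083) and EPHB2 with only the libraries of the 2 days fitted (0.0686).

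From day 7 to day 10, the falls named by size were those of EPHA1 to 5.55 and 8.50 CPM (day 10/day 7 log2 change -1.65 ± 0.46, adjusted p = 0.0256), EPHB2 to 61.2 and 73.3 CPM (day 10/day 7 log2 change -1.39 ± 0.35, adjusted p = 0.0158), SEMA6A to 36.0 and 34.4 CPM (day 10/day 7 log2 change -1.35 ± 0.28, adjusted p = 0.0039), ROBO2 to 58.1 and 106 CPM (day 10/day 7 log2 change -1.34 ± 0.39, adjusted p = 0.0317) and UNC5D to 18.5 and 17.2 CPM (day 10/day 7 log2 change -1.25 ± 0.36, adjusted p = 0.0349). All 5 were lost without day 10 replicate 1. For EPHA1 the call was lost without day 7 replicate 3 (0.0739), without day 10 replicate 1 (0.289) or without day 10 replicate 2 (0.0513), and for EPHB2 without day 10 replicate 1 (0.184). For SEMA6A it was lost without day 10 replicate 1 (0.0961) or without day 10 replicate 2 (0.0529). For ROBO2 it was lost without day 7 replicate 2 (0.0753), without day 7 replicate 3 (0.0767) or without day 10 replicate 1 (0.442), and for UNC5D without day 7 replicate 1 (0.0551), without day 7 replicate 2 (0.0802), without day 7 replicate 3 (0.0624), without day 10 replicate 1 (0.252) or without day 10 replicate 2 (0.15). From day 10 to day 14, SEMA3C rose from 47.7 and 45.9 CPM (day 14/day 10 log2 change 1.89 ± 0.47, adjusted p = 0.0253), a call lost without day 10 replicate 1 (0.151), without day 10 replicate 2 (0.253), without day 14 replicate 1 (0.0586) or without day 14 replicate 3 (0.0835). EPHA2 fell from 82.3 and 122 CPM to 46.9, 52.4 and 33.4 CPM (day 14/day 10 log2 change -1.21 ± 0.33, adjusted p = 0.0376), lost without day 10 replicate 2 (0.353), without day 14 replicate 1 (0.0731) or without day 14 replicate 3 (0.132). EFNB2 fell from 32.2 and 52.1 CPM (day 14/day 10 log2 change -1.21 ± 0.34, adjusted p = 0.0458), lost with library totals alone (0.0679), with the replicate number as a block (0.0592), without day 10 replicate 2 (0.482), without day 14 replicate 1 (0.159) or without day 14 replicate 3 (0.158). None of the calls at days 10 and 14 named here therefore passed with every library left out in turn.

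Libraries of the same day differed in which guidance genes they held most of. Among 55 members with a mean of at least 5 CPM on day 3, 18 were highest in replicate 1, among them DCC, UNC5C, NRP1, SEMA6D, EPHA4 and SEMA3A, 20 in replicate 2, among them EPHA2, EPHB2, EPHB3, SLIT3 and UNC5B, and 17 in replicate 3, among them NTN1, PLXNA2, SEMA3G, SEMA3F and SEMA5B. Replicate 1 was lowest for 30. Mesendoderm markers summed to 181, 236 and 451 CPM in the 3 libraries of that day. On day 5, of 52 such members, replicate 2 was lowest for 32 and highest for 15, and replicate 3 was highest for 30. Genes highest in replicate 2 included SEMA6D, SEMA3C, SEMA5A, SLIT2 and EPHA7. Epicardial markers, all 4 detected, summed to 17.2, 75.5 and 16.4 CPM there, and cardiac progenitor markers to 424, 341 and 843. Of the epicardial markers, WT1 had 9.01, 33.45 and 4.47 CPM and TBX18 4.085, 37.5 and 6.705 CPM. TCF21 had 3.965, 4.18 and 5.215 CPM, highest in replicate 3, and UPK3B at most 0.3485 CPM. On day 14, endoderm and liver markers summed to 469, 2242 and 2977 CPM. The part of these markers' cell types in the spread of the members was not tested.

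**Figure D5:**
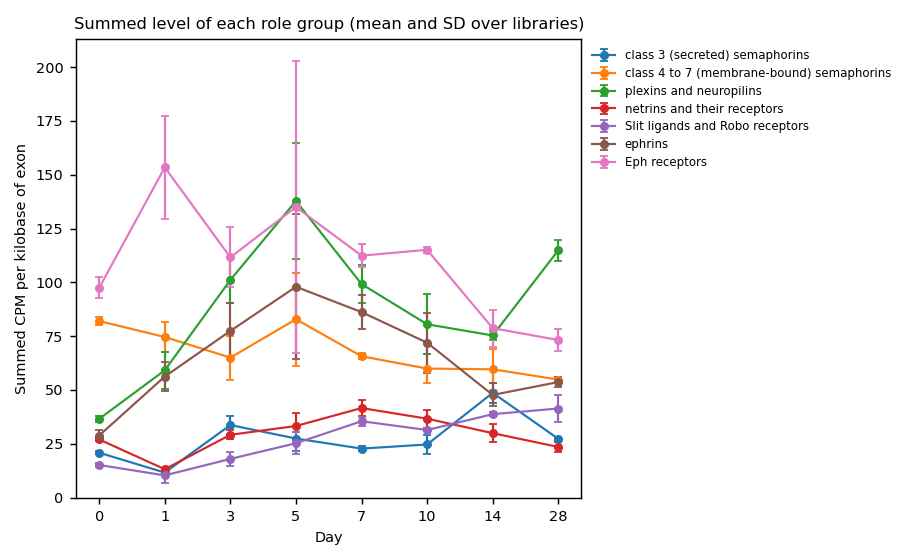
Summed level per kilobase of exon for each role group by day, with a marker for the day mean and a bar for the SD over libraries. Lines join the days. Plexins and neuropilins went from 36.5 on day 0 to 138 on day 5, and of their days day 5 has the largest SD.

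Genes that act beside these ligands and receptors were described from 2 lists. Of 16 co-receptors and modulators, 6 (37.5%) rose and 1 (6.25%) fell from day 1 to day 3, beside 18.2% and 19% of all genes. On day 28, 5 were higher and 5 lower than on day 0, 31.2% each way, near the 32.1% and 28.4% of all genes. FLRT3, a partner of UNC5 receptors, rose at day 3 from 12.3 ± 2.42 to 84.5 ± 26.2 CPM, a log2 change of 2.77 ± 0.35, adjusted p = 7.96e-07. FLRT2, a relative that also binds UNC5 receptors, rose at day 28 from 51.3 ± 37.0 to 258 ± 64.4 CPM, a log2 change of 2.33 ± 0.51, adjusted p = 0.00209. KDR, the VEGF receptor that pairs with NRP1, fell at day 28 from 140.1 ± 40.5 to 34.0 ± 8.34 CPM, a log2 change of -2.04 ± 0.39, adjusted p = 0.000514. DRAXIN, a secreted netrin modulator, fell over the course from 79.9 ± 7.90 to 0.422 ± 0.155 CPM, a log2 change of -7.53 ± 0.50, adjusted p = 2.03e-12.

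Of 37 signal transducers, 1 (2.7%) rose and 12 (32.4%) fell from day 0 to day 1, beside 15.3% and 16.5% of all genes. At day 3, 10 rose and 10 fell, 27.0% each way beside 18.2% and 19%. From day 14 to day 28, 11 (29.7%) rose and 4 (10.8%) fell, beside 7.96% and 7.78%. MICAL2, an enzyme that oxidises actin and whose family acts downstream of plexins, rose at day 5 from 13.0 ± 4.42 to 298 ± 66.0 CPM, a log2 change of 4.51 ± 0.30, adjusted p = 3.3e-11. CRMP1, a collapsin response mediator, fell at day 3 from 270.1 ± 50.7 to 65.9 ± 15.6 CPM, a log2 change of -2.04 ± 0.27, adjusted p = 1.54e-06. ABLIM1, an actin-binding LIM protein, rose at day 10 from 92.6 ± 5.59 to 285 ± 56.9 CPM, a log2 change of 1.62 ± 0.35, adjusted p = 0.00507. RRAS, a small GTPase that plexins act on, rose at day 28 from 15.3 ± 3.96 to 51.7 ± 12.1 CPM, a log2 change of 1.75 ± 0.31, adjusted p = 0.0002. The libraries of the compared days did not overlap for any of these 8 genes, and for them no other settings were run.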

How the data were processed

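RNA of 23 libraries was measured on 8 days. Counts per gene were deposited by the authors: the submitters' processing notes list Trim Galore 0.65, the aligner STAR 2.7.0, HTSeq for counting and the build GRCh38. The strand setting is not given in the sources used here. The table had 57521 rows. Of these, 44 pseudoautosomal Y copies with 0 counts were left out, and 56387 identifiers matched GENCODE v44, which gave symbols, gene types and exon lengths. Libraries held 4330334 to 22089595 counts: at most 8889988 each on days 7 to 14, 4330334 to 13679686 on day 5 and at least 9252641 on the other days, which limits weak genes most in the shallow libraries.

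Genes passing filterByExpr at a minimum of 10 counts entered a robust quasi-likelihood fit over the 23 libraries, with TMM factors and day as the only term (edgeR 4.0.16, limma 3.58.1, R 4.3.3), after the code was tested on simulated data. P-values were adjusted by Benjamini-Hochberg over 22245 genes. CPM used TMM library sizes, and levels per kilobase used merged exons. The fit was repeated with RLE factors, upper-quartile factors, library totals, a minimum of 1 CPM in 3 libraries, no filter, a block for the replicate number, a fit per pair of days, and without each library, and with DESeq2 1.42.0.

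The members and lists were chosen with earlier results of these data known. Members given per library were the 5 largest called rises or falls of a comparison with at least 5 CPM and no overlap, with SEMA6D and NTN1, and from the pathway lists the largest called rise or fall. Other values per library were added after they were seen. Same-numbered libraries did not deviate together in most pairs of days (median correlation -0.00188, over 0.1 in 13 of 77 pairs), so numbers were not taken as pairs. Single pairs ran from -0.464 to 0.651, so a link between some days is not excluded.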

Additional observations from a re-analysis of the deposited data

How the results depend on the processing

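Of 195 calls of a member in a comparison, 122 passed in every alternative, 73 were lost in at least 1 and 0 reversed. With the replicate number as a block, members called at any day stayed at 66, and at day 28 against day 14 there were 14 rises and 9 falls. With only the libraries of the 2 days, counts of rises and falls were 7 and 5 at day 5, 3 and 0 at day 7, 3 and 18 at day 10, and 4 and 5 at day 14, with 17 falls at day 28 against day 14; fewer libraries then estimate the spread. With no filter on low counts there were 18 falls at day 5, 1 rise at day 10, and 3 rises and 6 falls at day 14. Library totals alone moved the median log2 change of all genes by 0.23 at day 3, 0.15 at day 7, -0.18 at day 10, -0.21 at day 28 against day 14 and -0.12 at day 28 against day 0 (upper quartile factors -0.12 at day 28 against day 14), and gave 4 falls at day 3, 3 at day 7 and 1 at day 14. DESeq2 gave 4 rises at day 14. Leaving out each library in turn gave 11 to 15 falls at day 1, 3 to 8 at day 3, 10 to 20 rises and 9 to 20 falls at day 5, 3 to 9 rises and 3 to 8 falls at day 7, 0 to 5 falls at day 10, 0 to 1 rises and 0 to 2 falls at day 14, and 4 to 7 falls at day 28 against day 14. The cause of these differences between settings was not tested, also for the smaller fits, in which the filter, the factors and the adjustment were redone too. Some weak genes held few counts in deep libraries too: UNC5A held 1 count on day 28, in libraries of 14644475 to 15637683 counts. The part of depth in the number of calls was not tested.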
